A study of Rattus norvegicus with 151 samples.

Results

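The response of the liver to a high oral dose of MCHM was set against the response of the kidney of the same rats, gene by gene. MCHM is 4-methylcyclohexanemethanol, a cyclic alcohol, and the series belongs to toxicology work that followed its spill into drinking water in West Virginia. The comparison used 18 of the 151 arrays of the series, chosen by tissue, chemical and dose alone. They were 5 livers and 5 kidneys of rats given corn oil without MCHM (0 mg/kg) and 4 livers and 4 kidneys of rats given 500 mg/kg. All were male Harlan Sprague-Dawley rats, 6 to 8 weeks old at dosing, dosed by gavage once a day for 5 days, so the treated rats differed from the vehicle rats by MCHM and the controls also carried the oil. Animals 40, 41, 42 and 43 were treated and gave both tissues. Animals 3, 4, 6 and 8 gave both vehicle tissues, animal 7 only a vehicle liver and animal 5 only a vehicle kidney, so 8 of 10 animals gave both. Total RNA of each tissue was hybridised to 1 Affymetrix rat expression array, and the values are log2 units, where 1 unit is a doubling.

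The liver receives a swallowed chemical first, through the portal vein, and oxidises alcohols and the acids formed from them. Medium-chain acyl-CoA synthetases join such acids to coenzyme A, after which they can be conjugated with glycine or broken down. The kidney tubule holds some of the same enzymes and also filters and secretes the products. Nuclear receptors (CAR, PXR, PPARα) and stress regulators (Nrf2, ATF4) change the transcription of enzyme genes in liver cells when foreign chemicals or a shortage of amino acids are sensed, and cell cycle genes follow the share of dividing cells in a tissue.

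The tissue labels held: the mean level of 12 hepatocyte markers was 12.85 to 13.02 in all 9 livers and that of 15 proximal tubule markers 11.31 to 11.52 in all 9 kidneys, against 5.89 to 6.15 in livers. The kidneys of 2 animals stood apart. In the kidney of vehicle animal 4 the hepatocyte markers averaged 7.09, against 5.20 to 5.64 in the other kidneys, with 10 of the 12 markers highest there (Alb at 10.19, 3.75 to 6.14 elsewhere). In the kidney of treated animal 42 the 13 fat cell markers averaged 8.60, against 5.58 to 6.00 in the other kidneys, with 10 of the 13 highest there (Ucp1 at 12.40 against 4.37 to 4.79). Results that rest on the kidneys are therefore also given without these 2. In bulk tissue, fewer cells of a type and less RNA per cell cannot be told apart.

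No gene passed the test of a difference between the tissues' responses, although livers changed at many more genes than kidneys. Of 14218 genes on the array with a single symbol, 11596 were tested, those above the lowest 40% of values in at least 3 arrays of either tissue. The liver change minus the kidney change passed a Benjamini-Hochberg adjusted p under 0.05 (limma) at 0 of 11596 genes (0%). The smallest adjusted p was 0.116, and 1087 genes (9.37%) had an unadjusted p under 0.05. This does not show that the tissues responded alike: the 95% interval of the difference lay within a 1.5-fold change in either direction for 9169 genes (79.1%), and 211 genes had an estimated difference past 1.5-fold, 109 with the liver change above and 102 with it below. In the same fit the liver change itself passed at 90 genes (0.776% of genes tested), of which 50 rose (0.431%) and 40 fell (0.345%). The kidney change passed at 4 genes (0.0345%). The mean of both changes passed at 44 genes (0.379%), of which 16 rose (0.138%) and 28 fell (0.241%). These counts moved when 1 array was left out: without the liver of treated animal 41 there were 10 tissue differences, 256 liver genes and 87 genes on the mean, and without the kidney of vehicle animal 8 there were 7 on the mean. A gene that passed in liver and not in kidney is thus not shown to differ between them.

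Among the 90 genes that passed in liver, the median size of the liver change was 0.54 log2 units, and the median kidney change in the same direction was 0.05. The kidney values varied from gene to gene, and 23 of the 90 also passed on the mean of both tissues. Larger kidney changes among them were those of Cdkn3 (-1.01), Cyp4a1 (0.55), Ccnd1 (-0.54) and Eci1 (0.51). In kidney 59 of the 90 had the liver's sign, 7 were not above the kidney's filter, and 0 passed. The share with like signs over all tested genes was not counted, so the 59 are not read as an excess. At 77 of the 90 the difference between tissues had an unadjusted p under 0.05, against 9.37% of all tested genes. The 90 were chosen by their liver change, which is itself part of the difference. This count and the medians above are thus no evidence that the tissues differ. Across all tested genes the liver and kidney changes correlated weakly (Pearson's r = 0.185 and Spearman's rho = 0.17 over 11596 genes, a description only, since genes are not independent and the tissues share animals).

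**Figure D1:**
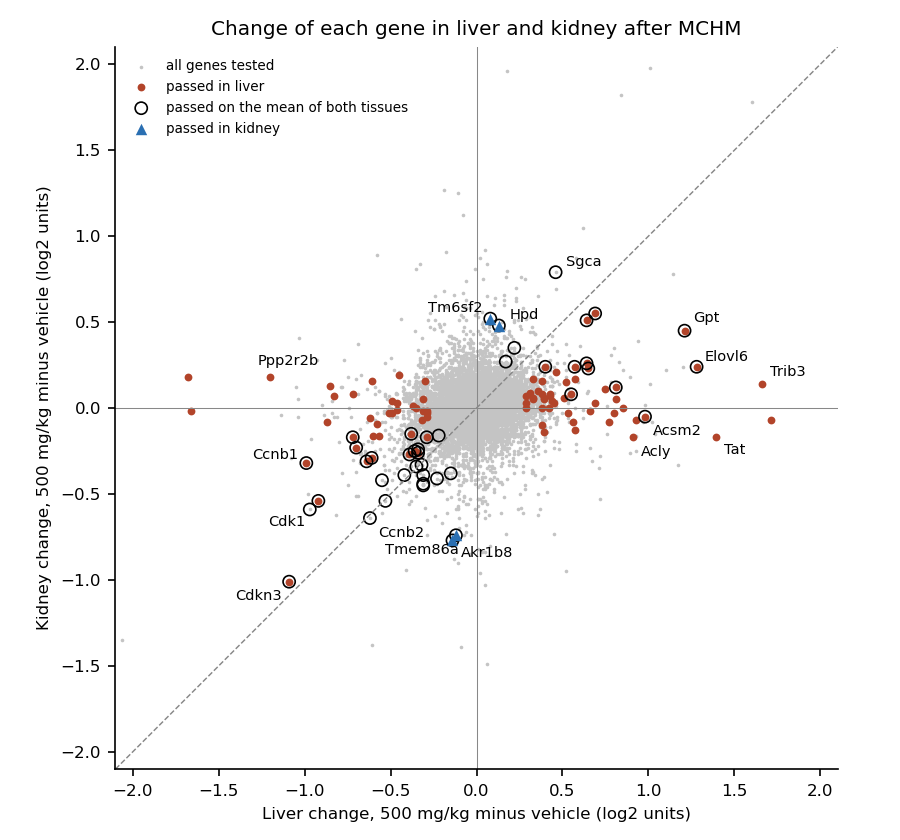
Change of each of 11596 tested genes between vehicle and 500 mg/kg MCHM in liver (x axis) and kidney (y axis), both in log2 units, with the dashed line at equal change. The median kidney change of the 90 genes that passed in liver (red) was 0.05 in the direction of the liver, Cdkn3 lies near the dashed line at the lower left, and 2 genes fall outside the axes.

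The clearest liver-led gene was Acsm2, a mitochondrial medium-chain acyl-CoA synthetase. Its level was 6.10 to 7.00 in vehicle livers and 7.37 to 7.75 in treated livers, and the groups did not overlap. In kidneys it was already 12.86 to 13.15 with vehicle and stayed at 12.83 to 13.02 with MCHM, with overlap. Liver Acsm2 rose by 0.98 (SE 0.13, adjusted p = 0.00322, limma), and the kidney change was -0.05 (SE 0.13). The difference was 1.03 (95% interval 0.65 to 1.41), the smallest unadjusted p of all genes (2.5e-05, adjusted 0.116). Groups without overlap are not rare here: they occurred at 5.44% of tested genes in liver and 3.13% in kidney.

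Acsm2 was 1 of several genes that are far higher in kidney and rose in liver. Bdh2, a short-chain dehydrogenase, went from 4.77 to 5.28 in vehicle livers to 5.61 to 6.18 in treated livers, a rise of 0.80 (adjusted p = 0.00488, limma), while all 9 kidneys lay between 10.17 and 10.54. Cryl1, a crystallin-related dehydrogenase, went from 7.63 to 8.15 to 8.38 to 8.62 in liver, a rise of 0.55 (adjusted p = 0.00746, limma), with all kidneys at 11.29 to 11.57. In vehicle rats 11 of the 90 liver genes were over 2 log2 units higher in kidney than in liver. Over all tested genes this held for 808 of 11596, a smaller share. Most of the 90 liver genes were not of this kind.

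Genes of amino acid breakdown and of the amino acid stress response were among those that rose in liver. Tat, the tyrosine aminotransferase, lay at 8.38 to 9.15 in vehicle livers and at 9.45, 9.87, 10.26 and 10.64 in treated livers, all above the vehicle range. The rise was 1.39 (SE 0.21, adjusted p = 0.00507, limma). Kidneys held Tat below the filter value of 4.66 (3.33 to 4.07 in all 9), so its kidney change of -0.17 is no measure of a kidney response. Trib3, a pseudokinase induced through ATF4, rose in liver from 7.69 to 8.51 to 8.75 to 10.70, by 1.66 (SE 0.27, adjusted p = 0.00746, limma). In kidney Trib3 was 4.50 to 5.08 with vehicle and 4.85 to 5.06 with MCHM, near the filter value of 4.66. Its tissue difference was 1.52 (95% interval 0.72 to 2.31, adjusted p above the threshold) and rests on these low kidney values. Mthfd2, a mitochondrial folate enzyme of the same response, rose by 0.81 in liver (adjusted p = 0.0351, limma). Its kidney change was 0.05, with kidneys also near the filter value (4.62 to 5.16). Treated liver 41 was the lowest of the treated livers for Tat, Trib3 and Mthfd2.

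Lists of genes give the wider pattern. Their counts stand beside the shares over all tested genes, of which 0.431% rose and 0.345% fell in liver and 0.0345% passed in kidney. Of 25 tested genes of the ER stress and amino acid response, liver Trib3 rose and Erlec1 fell and 0 passed in kidney, and the median difference between tissues was -0.09, against -0.01 over all tested genes. Of the 25 differences 9 were positive, against 5482 of 11596 over all tested genes (463 positive and 624 negative at an unadjusted p under 0.05). At an unadjusted p under 0.05 there were 5 positive differences, those of Trib3, Atf4 (0.39), Chac1 (1.19), Atf3 (1.05) and Psph (0.53), and 2 negative ones, those of Erlec1 (-0.27) and Dnajc3 (-0.22). Of 56 genes of amino acid breakdown and the urea cycle, 3 rose in liver (Tat, Gpt and Prodh) and 1 rose in kidney (Hpd), and 39 had a positive difference (median 0.10). Of 16 methionine cycle and one-carbon genes, Mthfd2 rose in liver and the median difference was 0.10. Without the 2 kidneys that stood apart, the median differences of these 3 lists were 0.01, 0.08 and 0.06, in the same order. Positive differences then numbered 13 of 25 in the ER stress and amino acid response list, against 5585 of 11576 over all tested genes.

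Lipid synthesis rose in liver at a few enzymes. Acly, which makes cytosolic acetyl-CoA from citrate, was 10.34 to 11.13 in vehicle livers and 11.34 to 12.03 in treated livers. It rose by 0.91 (SE 0.16, adjusted p = 0.0101, limma), and its kidney change was -0.17, with kidneys at 9.30 to 9.69 and 9.08 to 9.52. The difference was 1.07 (95% interval 0.62 to 1.53). Elovl6, an enzyme that lengthens saturated fatty acids, rose by 1.28 in liver (adjusted p = 0.0101, limma) from 7.03 to 8.10 to 8.39 to 9.37, and its kidney change was 0.24. Of 22 fatty acid synthesis genes these 2 rose in liver and 0 in kidney, with median changes of 0.32 and 0.15. Of 21 genes of cholesterol synthesis and uptake, Tm7sf2 (0.75) and Ebp (0.39) rose in liver and 0 in kidney. The sign of the change was positive for 20 of the 21 in liver (median 0.30) and for 21 of 21 in kidney (median 0.13), against 5991 and 6402 of 11596 over all genes. Without the kidneys of animals 4 and 42 the kidney medians were 0.10 for cholesterol and 0.00 for fatty acid synthesis.

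Of 42 tested genes of fatty acid oxidation, 3 rose in liver and on the mean of both tissues, and 0 passed in kidney. Over all tested genes 0.431% rose in liver, 0.138% rose on the mean and 0.0345% passed in kidney. Eci1, a mitochondrial enoyl-CoA isomerase, was 11.55 to 11.64 in vehicle livers and 12.07 to 12.59 in treated livers. In kidneys it was 10.46 to 10.70 and 10.73 to 11.65, and neither tissue's groups overlapped. The mean change of both tissues was a rise of 0.58 (95% interval 0.36 to 0.80, adjusted p = 0.0307, limma). Cyp4a1, a fatty acid omega-hydroxylase and textbook target of PPARα, rose by 0.62 on the mean of both tissues (adjusted p = 0.0323, limma), by 0.69 in liver and with a kidney change of 0.55. Ehhadh, the peroxisomal bifunctional enzyme, rose by 0.45 on the mean (adjusted p = 0.0323, limma). The kidney of animal 42, rich in fat cell markers, had the highest kidney value of Eci1 (11.65) and Cyp4a1 (10.91). Without it and the kidney of animal 4, the kidney changes were 0.30 for Eci1, 0.40 for Cyp4a1 and 0.22 for Ehhadh, and the mean changes had adjusted p = 0.0604, 0.113 and 0.113 (limma). The list's median change was 0.03 in liver and 0.11 in kidney, where 31 of 42 changes were positive. Without the kidneys of animals 4 and 42 the kidney median was 0.01, with 22 of 42 changes positive.

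Gpt, the alanine aminotransferase, had the largest rise among the 16 genes that rose on the mean of both tissues, 0.83 (95% interval 0.49 to 1.17, adjusted p = 0.0387, limma). In liver it went from 8.33 to 8.77 to 9.66 to 10.06 with no overlap. In kidney it was 5.20 to 5.86 with vehicle and 5.37, 5.77, 6.94 and 5.73 with MCHM, where the high value is again animal 42. Without the 2 kidneys its kidney change was 0.14, the tissue difference 1.07 in place of 0.76, and the mean change still passed (adjusted p = 0.036, limma). Smim1 and Ulk2 also passed without them: Smim1, a small red cell membrane protein gene, with a mean change of 0.41 with all arrays and 0.37 without, and Ulk2, an autophagy kinase, with a fall, at -0.30 and -0.31. Sgca, the alpha-sarcoglycan, passed in both fits too, with 0.63 and 0.52, but its livers (4.27 to 5.02) did not pass the liver's filter, so its mean change rests on low liver values.

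**Figure D2:**
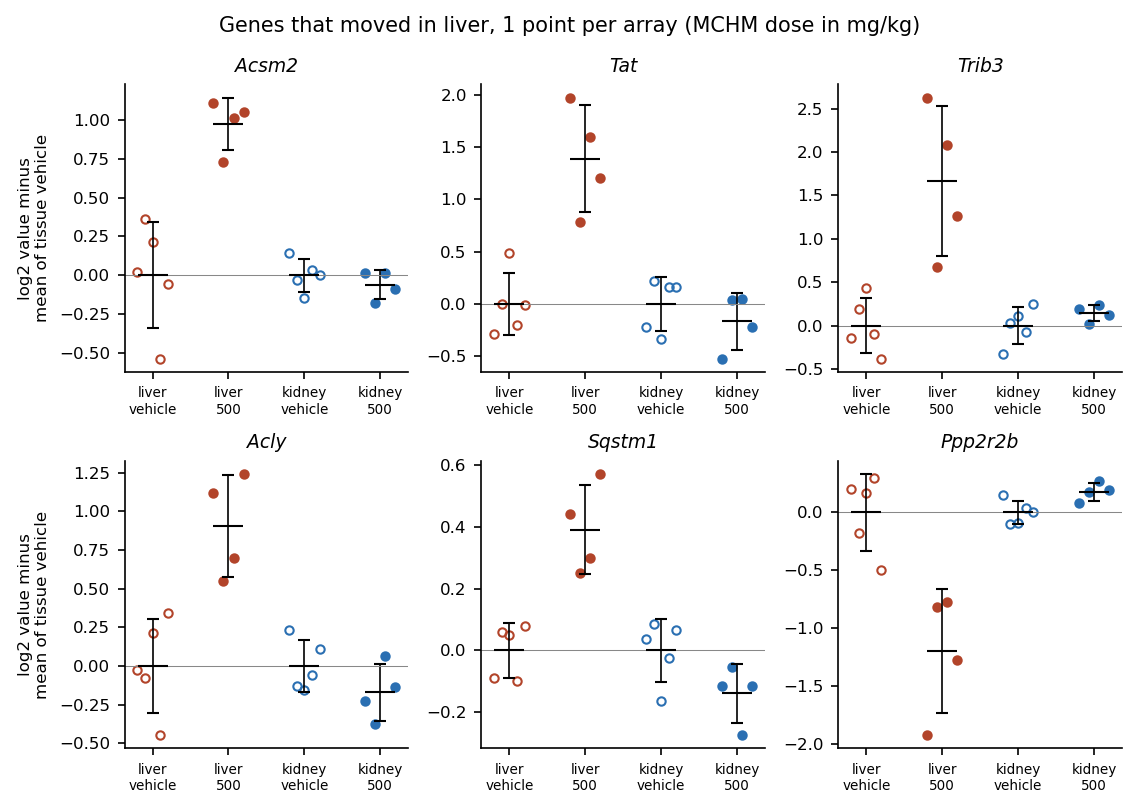
Values of 6 genes that passed in liver, 1 point per array, as log2 units from the mean of the vehicle arrays of the same tissue, with open points for vehicle, filled points for 500 mg/kg, and bars for mean and SD (n = 5 and 4). The treated livers lie apart from the vehicle livers for each gene, while the kidney groups overlap.

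Members of the cell cycle list made up 9 of the 28 genes that fell on the mean of both tissues. Of 30 tested cell cycle genes, these 9 fell on the mean of both tissues and 5 fell in liver, while 0 passed in kidney alone. Over all tested genes 0.241% fell on the mean, 0.345% fell in liver and 0.0345% passed in kidney. The list's median change was -0.38 in liver and -0.30 in kidney, against 0.01 in both tissues over all genes. No member had a positive liver change and 2 of 30 had a positive kidney change, against 5991 and 6402 of 11596 over all genes. The difference between tissues had a median of -0.06, and 5 members had an unadjusted p under 0.05: Ccnb1, Nusap1, Tyms and Ube2t, with the more negative liver change, and Cks2, with the opposite sign. Ccnb1 did not pass the filter in liver, nor Ube2t in kidney.

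Cdkn3, a phosphatase of cyclin-dependent kinases, had the largest fall. Its level in kidney was 6.53 to 7.02 with vehicle and 5.52 to 5.92 with MCHM, with no overlap. In liver it was 5.08 to 6.73 with vehicle and 4.70 to 5.12 with MCHM, and the overlap came from the vehicle liver of animal 8, at 5.08. The liver change was -1.09 and the kidney change -1.01 (SE 0.22 each), and the mean fell by 1.05 (95% interval -1.39 to -0.71, adjusted p = 0.0125, limma). The tissue difference was -0.08 (95% interval -0.72 to 0.56).

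Cdk1, the kinase that drives entry into mitosis, was 7.04 to 7.44 in vehicle kidneys and 6.59 to 6.77 in treated kidneys, and 5.57 to 6.83 and 4.51 to 5.88 in livers. Its mean change was a fall of 0.78 (adjusted p = 0.0446, limma). Both B cyclins, the partners of Cdk1, also fell on the mean: Ccnb2 by 0.63 (adjusted p = 0.037, limma), with -0.62 in liver and -0.64 in kidney, and Ccnb1 by 0.66 (adjusted p = 0.0387, limma). The changes of Ccnb1 were -0.99 in liver and -0.32 in kidney, but its livers (3.43 to 5.29) were mostly below or near the filter value of 4.68 and did not pass that filter, so its liver change and tissue difference are uncertain. Ccnd1, the G1 cyclin, fell by 0.73 on the mean (adjusted p = 0.0387, limma). The other members that fell were Nusap1 and Kif20a, spindle proteins, Birc5, the survivin gene, and Ube2t, a ubiquitin-conjugating enzyme of DNA repair whose kidneys (4.06 to 4.76) did not pass the kidney's filter.

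Of these 9 calls 0 remained without the kidneys of animals 4 and 42, when 4 genes in all passed on the mean in place of 44, and 2 remained without the kidney of vehicle animal 8. The list's median mean change was -0.29 without them and -0.30 with them, and the mean change of Cdkn3 was -1.05 in both fits (adjusted p = 0.0604 without them, limma). The median change of each set of blood and immune cell markers was below 0 in liver. Of 12 macrophage and Kupffer cell markers 0 passed, and 0 of 12 had a positive liver change (median -0.27), with means of 8.74 to 8.97 in vehicle and 8.37 to 8.89 in treated livers, and 2 of 12 had a positive kidney change (median -0.09). Of 10 tested lymphocyte markers, Ccl5 (-0.60, adjusted p = 0.0211, limma) and Jchain (-0.87, adjusted p = 0.0101, limma) fell in liver, while 4 of 10 had a positive liver change. Their medians were -0.11 in liver and -0.15 in kidney, and 0 of 10 had a positive kidney change. The medians of 3 neutrophil markers were -0.32 in liver and -0.20 in kidney, and those of 4 red blood cell markers -0.40 and 0.08, with 0 positive in liver. Their part in the cell cycle result was not tested.

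**Figure D3:**
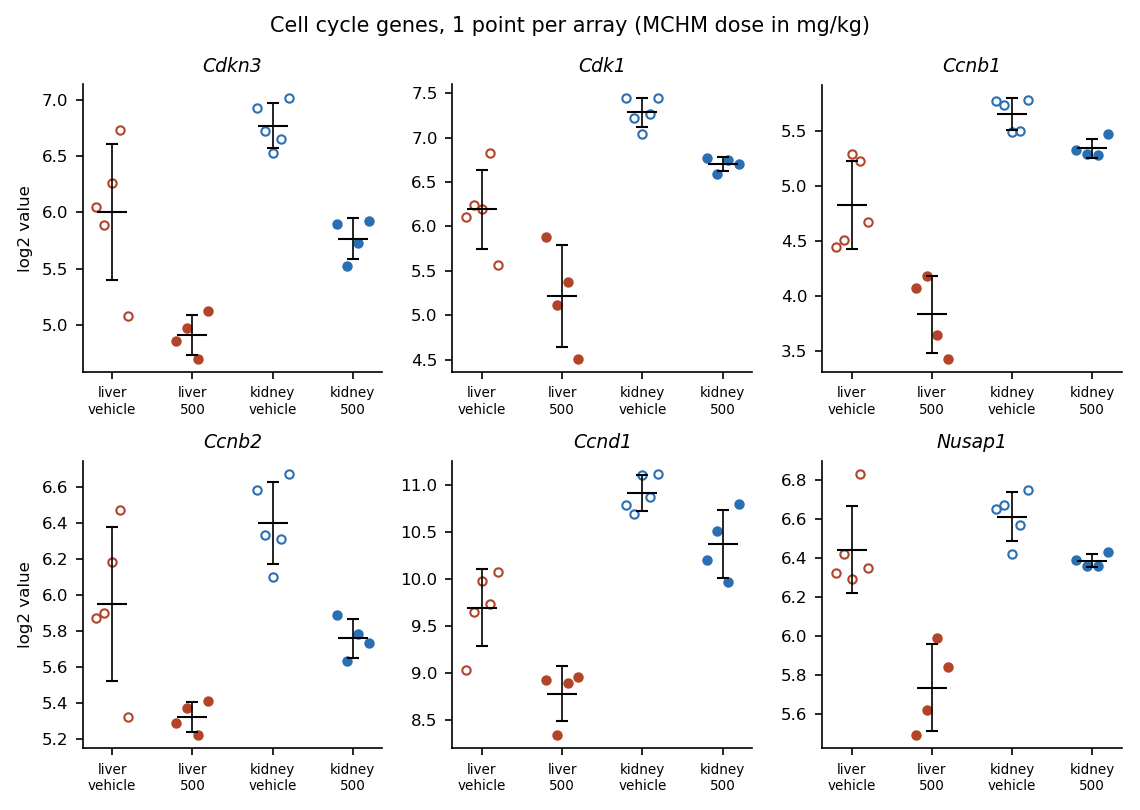
Log2 values of 6 cell cycle genes in each liver (red) and kidney (blue), with open points for vehicle, filled points for 500 mg/kg MCHM, and bars for mean and SD (n = 5 and 4). The means of treated arrays lie lower in both tissues, with the vehicle liver of animal 8 inside or near the treated range for Cdkn3 and Ccnb2.

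The promoters of these genes are shown because many of them hold the same short elements. Of the 28 genes that fell on the mean, 24 had a promoter in RefSeq's rat assembly GRCr8, taken as 250 bases before to 50 after the first start listed for the gene. The box CCAAT, read on either strand, was in 19 of the 24 (79.2%) and at least 2 copies were in 12 (50%), against 37.5% and 11.2% of all 33469 promoters of the table. Among 9666 promoters of tested genes, chosen like the 24, the shares were 37.7% and 13%. The element TTTGAA, the core of the cell cycle homology region, was in 11 of 24 (45.8%), against 18.3% of all and 11.3% of those of tested genes. Among 13 promoters of the 16 genes that rose, CCAAT was in 5, at least 2 copies in 2, and TTTGAA in 1. For genes that passed in liver, CCAAT was in 52.3% of 44 promoters of those that rose and 53.3% of 30 of those that fell. TTTGAA was in 6.82% and 33.3% of them. Among 26 promoters of the 30 tested cell cycle genes, 22 held CCAAT and 14 held TTTGAA. Neither motif contains the other, and a match is a description, not a bound site. The 140 bases before the start are printed for 4 of the 5 largest falls, 5′ to 3′ in the direction of the gene, with CCAAT (or ATTGG on the other strand) and TTTGAA (or TTCAAA) in capitals. They lie on GRCr8 at chr15:22502246-22502385 (plus strand) for Cdkn3, chr20:19265153-19265292 (plus) for Cdk1, chr2:33655226-33655365 (minus) for Ccnb1 and chr8:79981659-79981798 (minus) for Ccnb2.
Cdkn3: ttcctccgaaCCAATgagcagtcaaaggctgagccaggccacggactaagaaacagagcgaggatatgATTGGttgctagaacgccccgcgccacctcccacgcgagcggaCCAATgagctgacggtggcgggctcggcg
Cdk1: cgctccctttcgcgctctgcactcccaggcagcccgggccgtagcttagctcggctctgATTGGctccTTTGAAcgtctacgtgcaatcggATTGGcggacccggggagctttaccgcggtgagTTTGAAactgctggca
Ccnb1: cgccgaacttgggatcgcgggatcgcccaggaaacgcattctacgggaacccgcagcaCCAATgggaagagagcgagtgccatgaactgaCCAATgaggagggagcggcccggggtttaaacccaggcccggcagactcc
Ccnb2: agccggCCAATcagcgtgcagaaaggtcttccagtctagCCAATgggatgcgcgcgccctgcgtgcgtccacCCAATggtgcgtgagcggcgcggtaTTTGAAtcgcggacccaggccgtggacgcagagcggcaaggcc
Within these 140 bases Cdkn3 and Ccnb2 each held 3 CCAAT boxes and Cdk1 and Ccnb1 held 2, and TTTGAA occurred 2 times in Cdk1 and 1 time in Ccnb2.

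The 4 genes that passed in kidney each had a smaller estimated change in liver. Hpd, which acts on the product of Tat in tyrosine breakdown, was 12.03 to 12.23 in vehicle kidneys and 12.46 to 12.77 in treated kidneys, with no overlap, a rise of 0.48 (SE 0.07, adjusted p = 0.021, limma). In liver Hpd was 12.82 to 12.98 and 12.94 to 13.05, and the difference was -0.35 (95% interval -0.55 to -0.15). Akr1b8, an aldo-keto reductase, fell in kidney from 4.98 to 5.70 to 4.35 to 4.68, by 0.77 (adjusted p = 0.0378, limma), and was below the liver's filter value of 4.68 in all livers (4.04 to 4.58). Tmem86a, a lysoplasmalogen hydrolase gene, fell by 0.74 in kidney from 9.16 to 9.60 to 8.47 to 8.73, with a liver change of -0.12. Tm6sf2, a gene of lipid export, rose by 0.52 in kidney from 6.40 to 6.83 to 7.01 to 7.21, with a liver change of 0.08. Without the kidneys of animals 4 and 42, 0 genes passed in kidney; the kidney changes of these 4 were then 0.42, -0.77, -0.73 and 0.47, in the same order, with adjusted p of 0.137 for the first 3 and 0.254 for Tm6sf2 (limma).

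In the lists of foreign-chemical metabolism most differences were positive, and 0 genes passed the test of the difference. Of 22 Nrf2 targets, 19 had a liver change above the kidney change (median difference 0.38, against -0.01 over all genes), 9 of them at an unadjusted p under 0.05. Over all genes 5482 of 11596 differences were positive, 463 of them at that p, and 332 kidney changes were negative at that p. Negative kidney changes were part of these differences. The detoxification genes Gstp1 (-0.13 in liver and -0.88 in kidney), Gclc (0.13 and -0.43) and Nqo1 (0.03 and -0.41) are examples. In this list Akr1b8 fell in kidney, as described above, and 4 members in all had a negative kidney change at an unadjusted p under 0.05. Sqstm1, an autophagy receptor, rose in liver by 0.39 (adjusted p = 0.0185, limma) from 11.37 to 11.55 to 11.72 to 12.04. In kidney it was 11.04 to 11.29 and 10.93 to 11.15, and its difference was 0.53 (95% interval 0.31 to 0.75). Of 28 glutathione and other conjugating transferases, 24 had a positive difference (median 0.22), 0 passed in either tissue, 5 had a negative kidney change at an unadjusted p under 0.05, and the smallest p was that of Gsta1, at 0.02 in liver and -0.34 in kidney. The medians of the kidney changes were -0.07 in both lists and those of the liver changes 0.14 and 0.10. Without the kidneys of animals 4 and 42 the median differences were 0.23 and 0.19.

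Of 16 CAR and PXR targets 1 rose in liver: Ces2c, a carboxylesterase, by 0.81 (SE 0.11, adjusted p = 0.00322, limma), from 7.24 to 7.74 in vehicle to 7.99 to 8.54 in treated livers. In kidney Ces2c was 7.39 to 7.61 and 7.54 to 7.72, a change of 0.12, and the difference was 0.69 (95% interval 0.38 to 1.00). The list's median difference was 0.26, and 0.10 without the 2 kidneys. Of 5 AhR targets 0 passed in either tissue, and Cyp1a2 changed by 0.07 in liver. Of 20 alcohol and aldehyde oxidizing enzymes 0 passed in either tissue (median difference 0.04), and Aldh5a1 had the smallest p of the list, with -0.08 in liver and 0.30 in kidney (0.19 without the 2 kidneys). Of 8 medium-chain acyl-CoA synthetases and glycine conjugation genes, Acsm2 alone passed in liver and the median difference was 0.23.

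**Figure D4:**
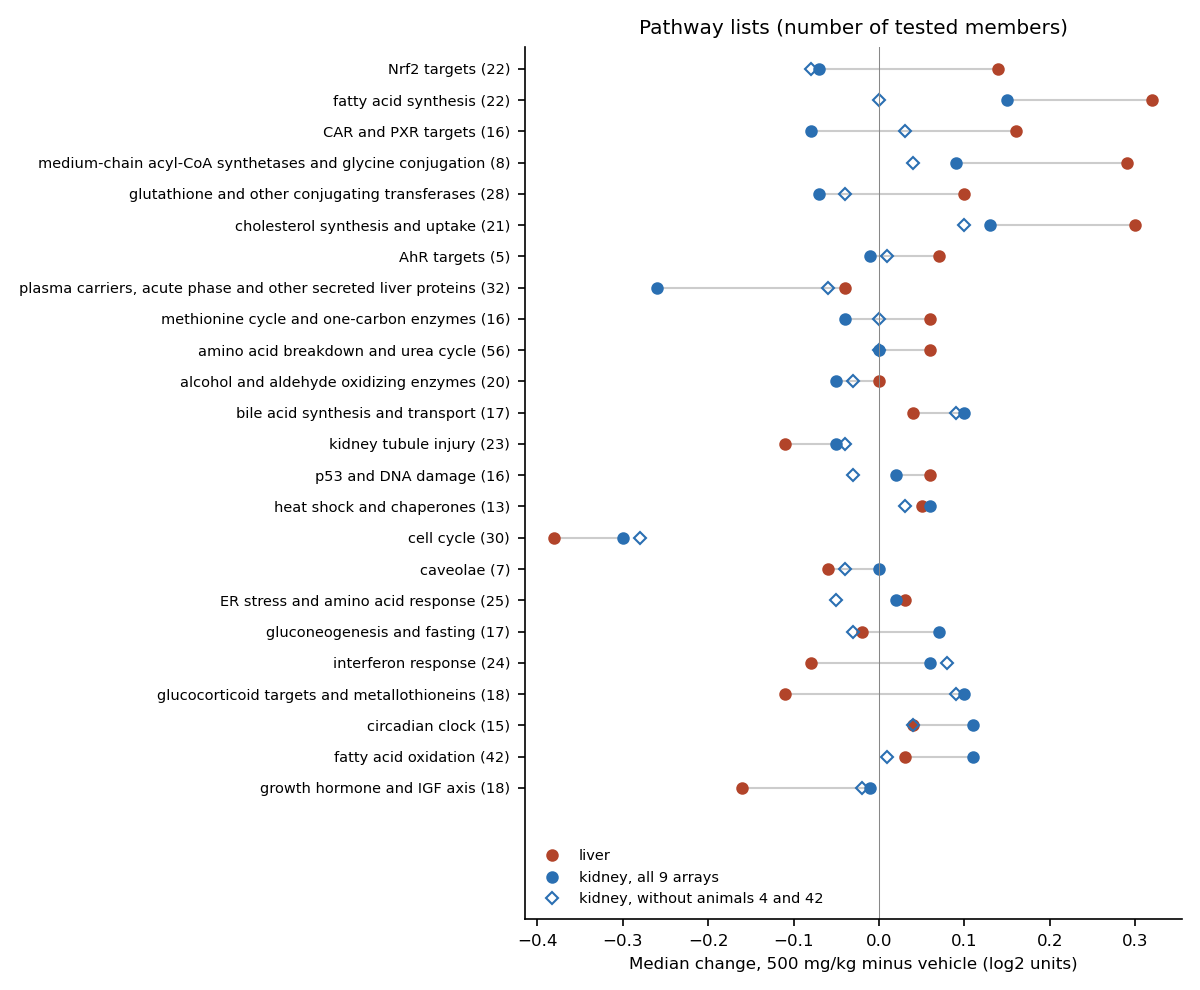
Median change (log2 units, 500 mg/kg minus vehicle) of the tested members of 24 pathway lists in liver (red) and kidney (blue), ordered by the median tissue difference, with open diamonds for kidney without animals 4 and 42. The cell cycle list lies at -0.38 and -0.30, and the list of secreted liver proteins moves from -0.26 to -0.06 in kidney when the 2 kidneys are left out.

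Other lists showed small or single-gene changes. Among 18 genes of the growth hormone and IGF axis, the receptor Ghr fell in liver by 0.30 (adjusted p = 0.0412, limma), from 11.78 to 11.88 to 11.48 to 11.60, with a kidney change of 0.16 and a difference of -0.46 (95% interval -0.65 to -0.27). Among 7 caveolae genes Cav2 fell in liver by 0.85 (adjusted p = 0.0111, limma) with a kidney change of 0.13, or -0.06 without the 2 kidneys. Among 32 plasma carriers, acute phase and other secreted proteins, Serpina6, the corticosteroid carrier, fell in liver by 0.57 (adjusted p = 0.0211, limma). The kidney median of that list was -0.26, and -0.06 without the kidneys of animals 4 and 42. Orm1 had its smallest p of difference, with a liver change of 0.66 short of the threshold, while its kidneys were all below the kidney's filter value (3.18 to 4.28).

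Of 18 glucocorticoid targets and metallothioneins 0 passed in either tissue; Mt2A changed by -1.03 in liver and 0.41 in kidney (difference -1.44, 95% interval -2.48 to -0.39), and vehicle livers alone spanned 9.74 to 11.88. In the lists of gluconeogenesis and fasting (17 genes, median difference -0.09), the circadian clock (15, -0.11), interferon response (24, -0.10), p53 and DNA damage (16, -0.03), bile acid synthesis and transport (17, 0.00), kidney tubule injury (23, -0.03) and heat shock and chaperones (13, -0.03), 0 genes passed in either tissue. Their smallest p of difference belonged to Pck2 (-0.36), Tef (-0.34), Cxcl9 (-1.05), Fas (-0.46), Slc27a5 (0.96), Clu (-0.37) and Bag3 (0.27). Cxcl9, Fas and Slc27a5 did not pass the kidney's filter, so their kidney changes are no measure of a kidney response. Without the kidneys that stood apart by their markers, the median differences from gluconeogenesis to heat shock were -0.03, -0.02, -0.18, 0.06, -0.05, -0.08 and 0.04, in the order above.

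Some further genes that passed in liver were chosen here after their values were seen. Egr1, an immediate-early transcription factor, fell in liver by 2.32 (SE 0.37, adjusted p = 0.00726, limma). Vehicle livers were 8.75 to 9.17 in 4 animals and 10.93 in animal 4, and treated livers 6.17 to 7.74. All kidneys lay between 6.51 and 7.09, so treated livers came down to a level near that of the kidneys, and the difference was -2.40 (95% interval -3.47 to -1.33). Noct, a clock-linked phosphatase, rose in liver by 1.71 (adjusted p = 0.011, limma), from 3.47 to 4.79 to 5.49 to 6.23, and kidneys were 5.31 to 6.94 throughout. Vehicle livers of Noct were below or near the liver's filter value of 4.68, so the size of its rise is uncertain. Lox, the lysyl oxidase that cross-links collagen, fell in liver by 1.68 (adjusted p = 0.041, limma), from 6.64 to 8.93 to 5.42 to 6.76 with overlap, and its kidney change was 0.18. Nim1k, a protein kinase, fell in liver by 1.66 (adjusted p = 0.0225, limma), from 5.89 to 7.86 to 4.52 to 5.82, and was below the kidney's filter value in all kidneys. Ppp2r2b, a regulatory subunit of protein phosphatase 2A, fell in liver by 1.20 (adjusted p = 0.00726, limma), from 6.48 to 7.28 to 5.05 to 6.20, against 6.30 to 6.55 and 6.48 to 6.67 in kidneys. Hes6, a transcriptional regulator, rose in liver by 0.77 (adjusted p = 0.00488, limma), with a kidney change of -0.08 and a difference of 0.86 (95% interval 0.52 to 1.19).

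At the next lower dose of MCHM, 300 mg/kg, which shares the vehicle arrays with 500 mg/kg, the tissue difference passed at 0 of 11575 genes (0%), with 665 at an unadjusted p under 0.05 and a smallest adjusted p of 0.442. The differences of Acsm2 were 1.03 at 500 and 0.92 at 300 mg/kg, those of Trib3 1.52 and 1.23, and those of Sqstm1 0.53 and 0.44. Others were much smaller at 300 mg/kg. The differences of Acly were 1.07 and 0.37, those of Elovl6 1.04 and 0.29, and those of Hes6 0.86 and 0.40. For Noct they were 1.79 and -0.02, and for Egr1 -2.40 and -0.92. For Tat, which was below the filter in kidney, the liver changes were 1.39 and 0.65. Cdkn3 changed at 300 mg/kg by -0.87 in liver and -0.54 in kidney, short of the threshold on the mean (adjusted p = 0.433, limma). Since the vehicle arrays are shared, likeness between the doses, where it occurs, is not independent.

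Crude MCHM, the technical mixture that is mostly MCHM, was given to other rats with their own vehicle group, and 14 of its arrays allowed the same comparison at 500 mg/kg (4 vehicle and 4 treated livers, 3 vehicle and 3 treated kidneys). There 16 of 11601 genes passed the tissue difference (0.138%), 14 of them positive (the liver change above the kidney change). Acsm2 was 1 of them, at 0.93 (95% interval 0.61 to 1.25, adjusted p = 0.0265, limma), with 0.80 in liver and -0.12 in kidney, beside 0.98 and -0.05 with pure MCHM. Hes6 was another, at 1.05 (adjusted p = 0.0133, limma), with 0.44 in liver and -0.61 in kidney, where pure MCHM gave 0.77 and -0.08. For Ugt2b7, a glucuronosyltransferase, the largest of the 16, the difference was 2.03 with crude MCHM and 1.30 with MCHM (95% interval 0.27 to 2.34). Its changes were 0.65 in liver and -1.37 in kidney with crude MCHM, and -0.09 and -1.39 with MCHM. Others of the 16 were near 0 with MCHM, such as Ttpa, the vitamin E transfer protein (0.90 and -0.12), and Vkorc1l1 (0.86 and -0.05). The crude count moved from 0 to 446 when single kidneys were left out (0 without 1 of the treated kidneys, 446 without 1 of the vehicle kidneys) and was 0 with the animal as a fixed block. With crude MCHM the changes of cell cycle genes named above were -0.01 in liver and -0.15 in kidney for Cdk1, -0.26 (95% interval -1.35 to 0.83) and -0.66 for Cdkn3, and -0.33 and -0.58 for Ccnb2. They were -0.04 and -0.50 for Birc5, -0.08 and -0.51 for Kif20a, and -0.74 and 0.10 for Ccnd1. Ccnb1 (0.05 in liver and -0.59 in kidney) and Nusap1 (0.10 and -0.28) had a positive liver change. Of these changes 0 passed the threshold. The difference between the chemicals was not tested.

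**Figure D5:**
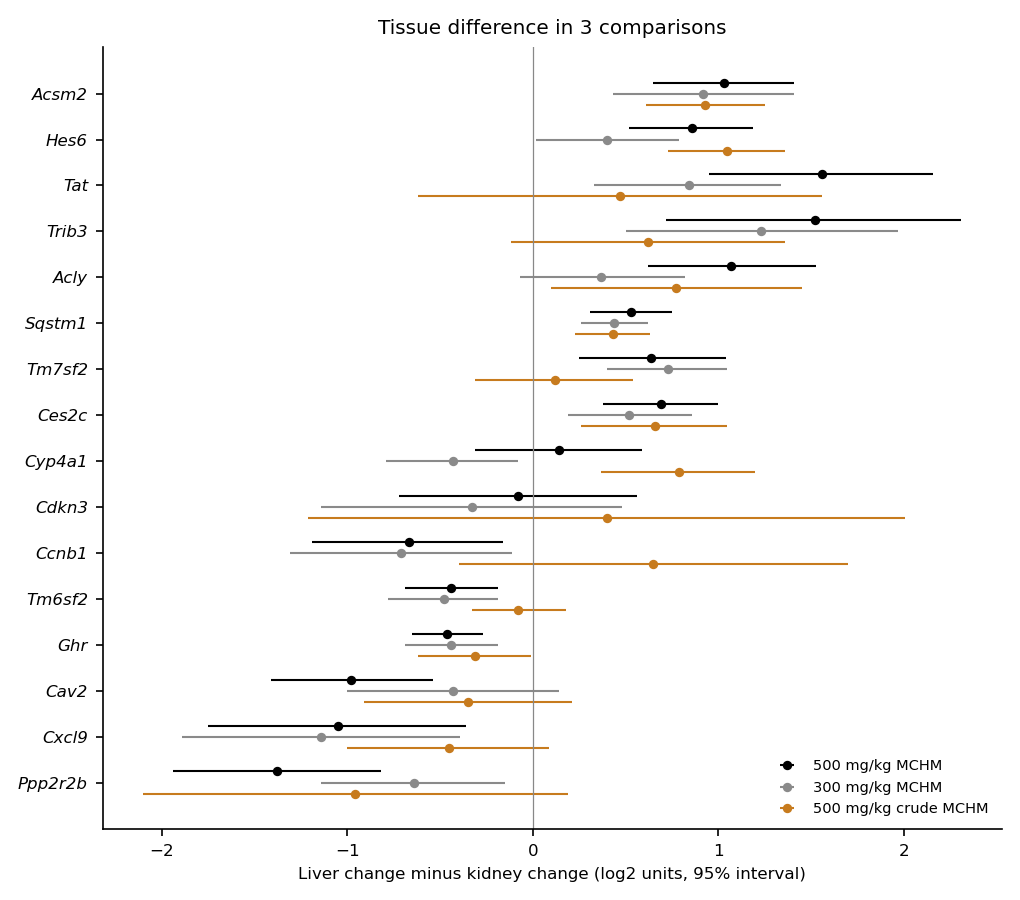
Liver change minus kidney change with its 95% interval (log2 units) for 16 genes at 500 mg/kg MCHM (black), 300 mg/kg MCHM (grey, same vehicle arrays) and 500 mg/kg crude MCHM (orange, own vehicle arrays). Acsm2, Hes6, Sqstm1 and Ces2c lie above 0 in all 3, while Tat and Trib3 have wide intervals that include 0 with crude MCHM. Tat and Cxcl9 did not pass the kidney's filter in any of the 3 sets, and Ccnb1 did not pass the liver's at 500 mg/kg MCHM. Trib3 and Cav2 were read from another probe set with crude MCHM than with MCHM.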

How the data were processed

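RNA was hybridised to Affymetrix arrays of the rat genome, 1 array per tissue and animal. The deposited values are log2 values of 31099 probe sets made by RMA, per the submitters' processing notes; its version, the software and whether both tissues were processed together are not given in the sources used here. RMA brings arrays to a common distribution, so a change of total RNA cannot be seen. Probe sets with 1 gene symbol (20832) were kept, those with several (436) or none listed (9831) were not used, and each gene was read in both tissues from its brightest probe set, by the mean of all 18 arrays. In the crude MCHM set it was chosen again on those arrays.

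The fit used lmFit and eBayes of limma 3.58.1 (R 4.3.3, with the package data.table at version 1.17.8), with tissue by dose as 4 groups and the animal as a random block through duplicateCorrelation (correlation 0.0505). Tests were two-sided with Benjamini-Hochberg adjustment over all genes tested. The filter values were 4.68 (liver) and 4.66 (kidney). The animal number in the title pairs the tissues: the deviations of an animal's liver and kidney from their group means correlated at 0.0417 to 0.249, and 7 of 8 animals correlated best with themselves. Scripts were tested on simulated data. The number of arrays limits the precision, and each array is 1 tissue of 1 animal by its title. The median SD within groups was 0.144 in liver and 0.128 in kidney.

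Genes were named by a rule: the 5 largest rises and falls on the mean, up to 3 per list of the called differences or else the smallest p, and the 3 smallest p in each tissue. The members and lists were chosen with earlier results of these data known. Genes named outside the rule are Tm6sf2, Bdh2, Cryl1, Hes6, Ppp2r2b, Egr1, Noct, Lox, Nim1k, Ulk2, Ehhadh, Birc5, Kif20a, Ube2t, Prodh, Ebp, Erlec1, Serpina6, those of the crude MCHM comparison, and members given beside a count. Alternatives are given in the closing section.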

Additional observations from a re-analysis of the deposited data

Results flagged for a closer look

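In 43 named genes the 4 groups of arrays (172 in all) were searched for 1 array far from the others of its group, and 10 were found, where chance alone marks about 1 in 20 groups of this size. In liver, treated animal 41 was apart for Ccnd1 (8.34, others 8.90 to 8.96), Cyp1a2 (13.03, others 12.62 to 12.69) and Gpt (10.06, others 9.66 to 9.72). Treated animal 40 was apart for liver Hpd (12.94, others 13.04 to 13.05), vehicle animal 7 for liver Nusap1 (6.83, others 6.29 to 6.42), and vehicle animal 4 for liver Egr1 (10.93, others 8.75 to 9.17).

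In kidney, treated animal 42, whose fat cell markers were high, was apart for Aldh5a1 (6.42, others 6.02 to 6.05) and Angptl4 (6.89, others 4.77 to 5.10). Treated animal 40 was apart for kidney Mthfd2 (4.62, others 5.00 to 5.04) and treated animal 43 for kidney Tm6sf2 (7.01, others 7.18 to 7.21).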

How the results depend on the processing

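The count of 0 for the tissue difference at 500 mg/kg held in 30 of 40 alternatives, among them no filter, another probe set rule, both further quantile normalizations, no animal block (0) and a fixed animal block (0). It was 1 with only the animals that gave both tissues (Acsm2), 7 with array weights and 17 with all doses in 1 fit, and 0 to 10 when 1 array or animal was left out (10 without the liver of treated animal 41, 5 without the liver of vehicle animal 4, without animal 3 and without animal 41, 2 without the kidney of vehicle animal 3, and 1 without the vehicle liver of animal 7 or 8). Acsm2 was called in 6 of the 40, more often than any other gene. At 300 mg/kg the count was 0 without the animal block and with it fixed. With crude MCHM the 16 genes became 0 with a fixed animal block, 14 without a block, 6 with paired animals only, 151 with array weights, 36 with a trended robust prior, and 0 to 446 with 1 array left out.

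The 90 liver genes became 153 with all doses in 1 fit, and 41 to 256 when an array or animal was left out (256 without the liver of animal 41, 41 without animal 40 and 57 without its liver, 57 without animal 8). The 4 kidney genes became 40 with array weights, 7 with a trended robust prior, 21 with all doses in 1 fit, 0 with fat cell markers as covariate, and 0 to 8 with an array or animal left out. They were 0 without the kidneys of animal 40, 42 or 6. The 44 genes of the mean change became 21 with paired animals only, 73 with array weights, 73 with all doses in 1 fit, 13 with fat cell markers as covariate, and 55 without the animal block. Left-out arrays or animals gave 3 to 87: 87 without the liver of animal 41, 7 to 26 without each of 12 other arrays (the livers of animals 3, 4, 7, 40 and 43 and the kidneys of animals 3, 4, 6, 8, 40, 41 and 42), and 3 to 20 without animal 3, 4, 6, 8, 40 or 42. The 9 cell cycle genes that fell became 5 with paired animals only, 3 with the fat cell covariate and 0 to 11 with an array or animal left out (11 without the liver of vehicle animal 8). They were 0 without animal 4, 6 or 40 and without the kidneys of animals 4 and 42, 2 without the kidney of vehicle animal 4 or 8 and 3 without the kidney of animal 42.

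No named result changed its direction past the threshold. The liver rises of Acsm2, Ces2c and Smim1 and the mean changes of Smim1 and Ulk2 passed in all 39 alternatives in which each was tested. Leaving out the kidneys of animals 4 and 42, and array weights per tissue, were added after the data had been seen. The cause of each shift was not tested. With 4 and 5 arrays a group, the median half-width of the interval of a tissue difference was 0.28 log2 units, before any adjustment for the number of genes. Far larger estimated differences also fell short of the threshold, such as -2.40 for Egr1 (adjusted p = 0.122, limma).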
